A study of Mus musculus with 7 samples.

Results

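The antiviral interferon-stimulated genes are a set of 38 named genes outside the Oas, Gbp and IRG families, and all 38 were found by symbol among the 23420 gene rows of the table. They were read in RNA from the hearts of 7 untreated mice aged 3 to 6 weeks. The 4 control mice were Ctla4+/+ and Pdcd1-/-, and the 3 mice with ICI-myocarditis (here also the diseased hearts), a model of heart inflammation under immune checkpoint inhibitors (ICI), were Ctla4+/- and Pdcd1-/-. Both groups thus lacked Pdcd1, which encodes PD-1, an inhibitory receptor on T cells, and the groups differed by 1 copy of Ctla4, which encodes a second receptor that restrains T cells. The labels name no Cre or promoter for either deletion, give no strain, and call the tissue whole heart while the extraction describes ventricle. Each library came from 1 labelled sample, and nothing in the labels states litters or shared dates.

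Interferons are secreted proteins that warn cells of infection. Type I interferons (IFN-alpha and IFN-beta) act through the receptor of Ifnar1 and Ifnar2 and lead a complex that holds STAT2 and IRF9 to a DNA element called ISRE, while IFN-gamma, made mainly by T and NK cells, acts through Ifngr1 and Ifngr2 on an element called GAS. The proteins encoded by the genes switched on this way sense viral nucleic acid, block entry, translation or replication, or tag other proteins, and many of these genes answer to both kinds of interferon. In the heart they are known from viral myocarditis, where cardiomyocytes, endothelium, fibroblasts and infiltrating leukocytes can all express them.

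Of the 38 genes, 24 were higher in ICI-myocarditis and 0 were lower at an adjusted p below 0.05 (limma, Benjamini-Hochberg over all genes tested), while 14 did not pass. Among all 15258 genes tested, 11.7% were called higher. All 38 passed the filter on low values, all 38 had a fold change above 0 (48.1% of all genes did), and their median log2 fold change was 1.43 against -0.02 over all genes. Fold changes here are on the log2(normalized count + 1) scale, where the normalized count is the number of reads of a gene divided by 1 size factor per library. The 24 genes rose by 0.89 to 6.72 on that scale, 23 of them at least 2-fold and 13 at least 4-fold. In the 24 called genes every ICI-myocarditis library lay above every control, and so it did in 3 of the 14 others (Ddx58, Adar and Pml), which makes 27 of 38 beside 17.3% of all genes tested. The authors' deposited table gives an adjusted p to 37 of the 38 genes, and 27 of these were below 0.05 and higher, beside 12.9% of all genes given one there. The gene without one there was Ubd (log2 fold change 4.54, SE 1.59). Limma and the authors' deposited table shared 23 calls. edgeR's quasi-likelihood test on recovered reads called 21 of the 38 beside 10.3% of all genes, and DESeq2 28 beside 14.2%. On simulated counts 24.5% of DESeq2's calls were wrong, against 6.52% of limma's and of edgeR's. The 3 limma calls missed by edgeR were Ifih1, Mx1 and Trim30a (edgeR adjusted p = 0.0695, 0.0717 and 0.0711).

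**Figure D1:**
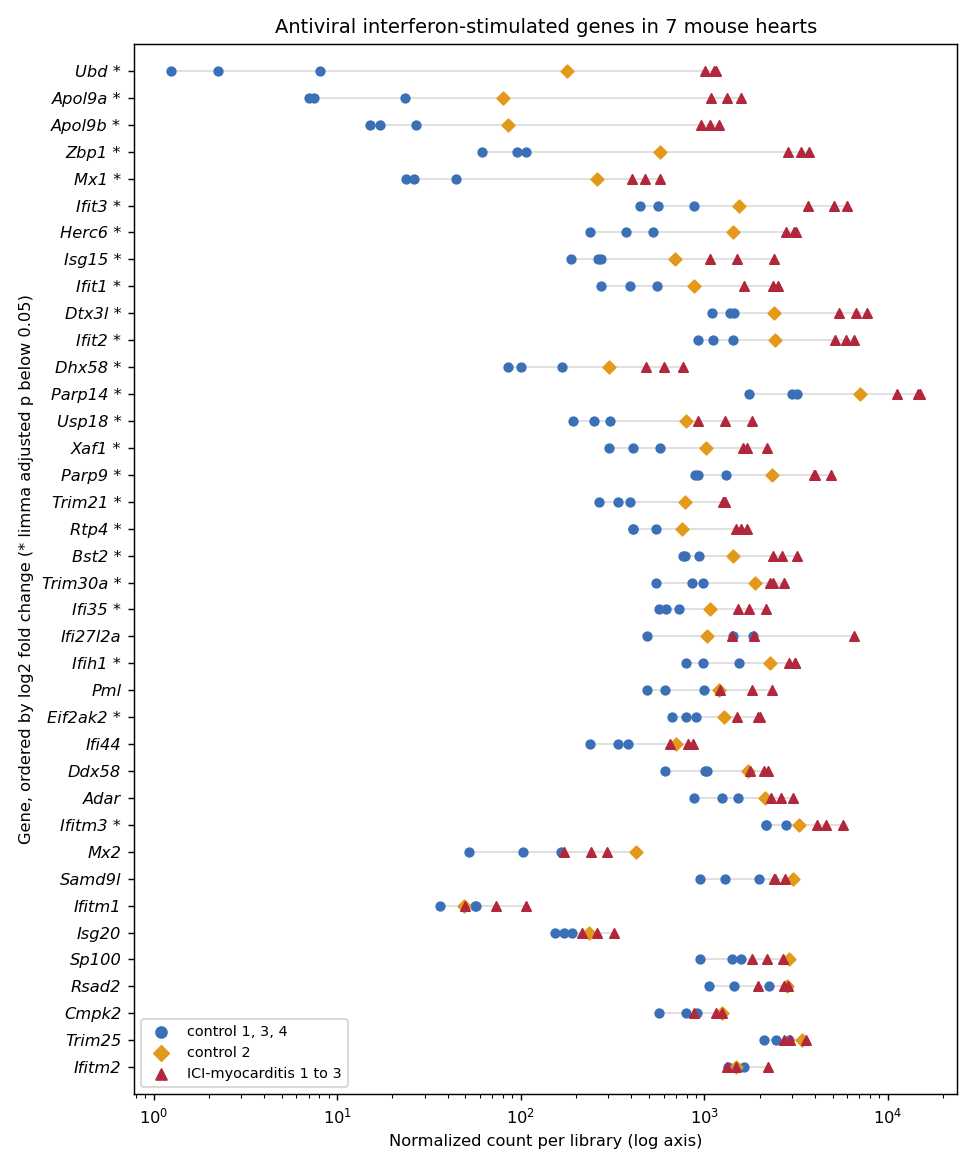
Normalized count (log axis) of each of the 38 genes in every library, ordered by log2 fold change from Ifitm2 at the bottom (0.14) to Ubd at the top (6.72). Circles are controls 1, 3 and 4, diamonds control 2 and triangles the 3 ICI-myocarditis libraries. The triangles lie to the right of all controls for 27 genes, and control 2 is the highest control for 35.

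The libraries held 20931730 (control 2) to 39037176 (ICI-myocarditis 2) reads assigned to genes. Control 2 stood apart from the other controls. It was the highest control for 35 of the 38 genes, against 35.3% of all genes tested, at a median of 2.16 times the mean of controls 1, 3 and 4, against 1.002 over all genes. Above controls 1, 3 and 4 alone, every diseased heart was higher for 32 of the 38, beside 22.4% of all genes. Without control 2 the called genes numbered 29, among them all 24 of the full comparison, with 14.9% of all genes then called higher. Control 2 was singled out from these same values, and dropping the highest control raises a fold change by itself. The results without control 2, here and below, are therefore no separate support. Leaving out control 1, 3 or 4 gave 18, 18 and 22 called genes (background 8.33%, 7.4% and 10.2%), and leaving out ICI-myocarditis 1, 2 or 3 gave 22, 18 and 18 (background 8.43%, 7.07% and 5.51%). As n is 4 and 3 and the labels do not say whether samples were bred or handled apart, the p-values measure only the spread between these samples.

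Promoter sequence was read for the genes with an entry in RefSeq's GRCm38.p6 annotation, 250 bases before to 50 bases after each annotated start site. Of the 38 genes 29 matched, with 38 windows, and Mx1, Mx2, Parp9, Parp14, Dhx58, Zbp1, Usp18, Rtp4 and Ifi27l2a are named only. The search used an ISRE core, 2 copies of GAAA with any 2 bases between them, and a GAS pattern, TTC and GAA with any 3 bases between them, on both strands, counting overlapping matches, and the 2 patterns may overlap each other. An ISRE core was present in 17 of 38 windows (44.7%), against 3.44% of all 32851 promoter windows and 3.17% of the windows of genes tested here. A GAS was present in 7 of 38 windows (18.4%), against 8.30% of all windows. By gene, an ISRE core was found in 11 of the 17 called genes with an entry and in 3 of the 12 genes not called (Ddx58, Rsad2 and Ifitm2). The 6 called genes without a core were Ubd, Herc6, Dtx3l, Ifit2, Xaf1 and Ifi35. All 8 genes with 2 or more cores in 1 window, namely Apol9a, Apol9b, Bst2, Ifit1, Ifit3, Ifitm3, Isg15 and Trim21, were called. Of all 29 genes with an entry 17 were called. The share called among genes outside the set with 2 or more cores is not given here. Apol9a and Apol9b share a run of 278 bases that holds their cores, so the 8 are not separate cases. These are letter matches in a reference strain that may differ from these mice, they are not sites shown to be bound, and a gene without a match may have one outside the window. Several windows of 1 gene overlap, so windows are not independent.

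The 8 stretches printed here cover the 160 bases before the start site and were chosen after the values were seen, to set called genes with 2 or more cores beside the genes not called that have 1 there. They read 5′ to 3′ on the strand of the gene, and capitals mark every base of an ISRE core or a GAS. Positions count back from the start site, the base before it being -1. In Isg15, chr4:156200819-156200978 (minus strand), 3 cores follow each other in steps of 6 bases from -78. In Ifit1, chr19:34640729-34640888 (plus strand), cores start at -104 and -85, and in Ifit3, chr19:34583369-34583528 (plus strand), at -156 and -122. In Bst2, chr8:71537473-71537632 (minus strand), a GAS at -136 runs into 2 overlapping cores. In Apol9a, chr15:77411081-77411240 (minus strand), and Apol9b, chr15:77728912-77729071 (plus strand), the same pair of overlapping cores lies in a shared run of 278 bases of the full windows, whose start sites are offset. In Rsad2, chr12:26456453-26456612 (minus strand), the single core starts at -120, and in Ifitm2, chr7:140955962-140956121 (minus strand), at -46.
Isg15: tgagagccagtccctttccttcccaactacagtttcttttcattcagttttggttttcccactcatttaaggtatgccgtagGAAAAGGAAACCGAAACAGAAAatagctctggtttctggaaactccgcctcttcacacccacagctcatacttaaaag
Ifit1: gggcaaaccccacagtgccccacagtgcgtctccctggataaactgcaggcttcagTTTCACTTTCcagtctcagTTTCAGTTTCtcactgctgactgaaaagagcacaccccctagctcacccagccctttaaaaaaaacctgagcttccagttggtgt
Ifit3: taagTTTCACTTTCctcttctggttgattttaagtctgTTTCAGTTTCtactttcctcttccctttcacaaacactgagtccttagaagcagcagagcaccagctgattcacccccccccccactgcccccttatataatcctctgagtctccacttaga
Bst2: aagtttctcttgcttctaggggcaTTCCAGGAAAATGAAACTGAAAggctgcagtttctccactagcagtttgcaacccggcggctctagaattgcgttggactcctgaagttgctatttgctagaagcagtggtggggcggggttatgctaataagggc
Apol9a: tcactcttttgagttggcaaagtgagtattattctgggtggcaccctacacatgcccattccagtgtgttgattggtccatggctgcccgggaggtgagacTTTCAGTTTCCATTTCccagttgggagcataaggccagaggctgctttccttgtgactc
Apol9b: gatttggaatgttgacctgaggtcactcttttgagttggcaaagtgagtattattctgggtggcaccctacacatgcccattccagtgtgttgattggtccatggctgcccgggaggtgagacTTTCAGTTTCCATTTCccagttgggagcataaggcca
Rsad2: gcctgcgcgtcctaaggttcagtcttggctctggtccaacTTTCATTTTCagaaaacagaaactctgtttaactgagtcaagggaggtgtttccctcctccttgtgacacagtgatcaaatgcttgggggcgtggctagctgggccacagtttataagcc
Ifitm2: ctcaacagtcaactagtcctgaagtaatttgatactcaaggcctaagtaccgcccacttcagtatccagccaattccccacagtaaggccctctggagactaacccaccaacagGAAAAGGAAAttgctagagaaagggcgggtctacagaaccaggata

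**Figure D2:**
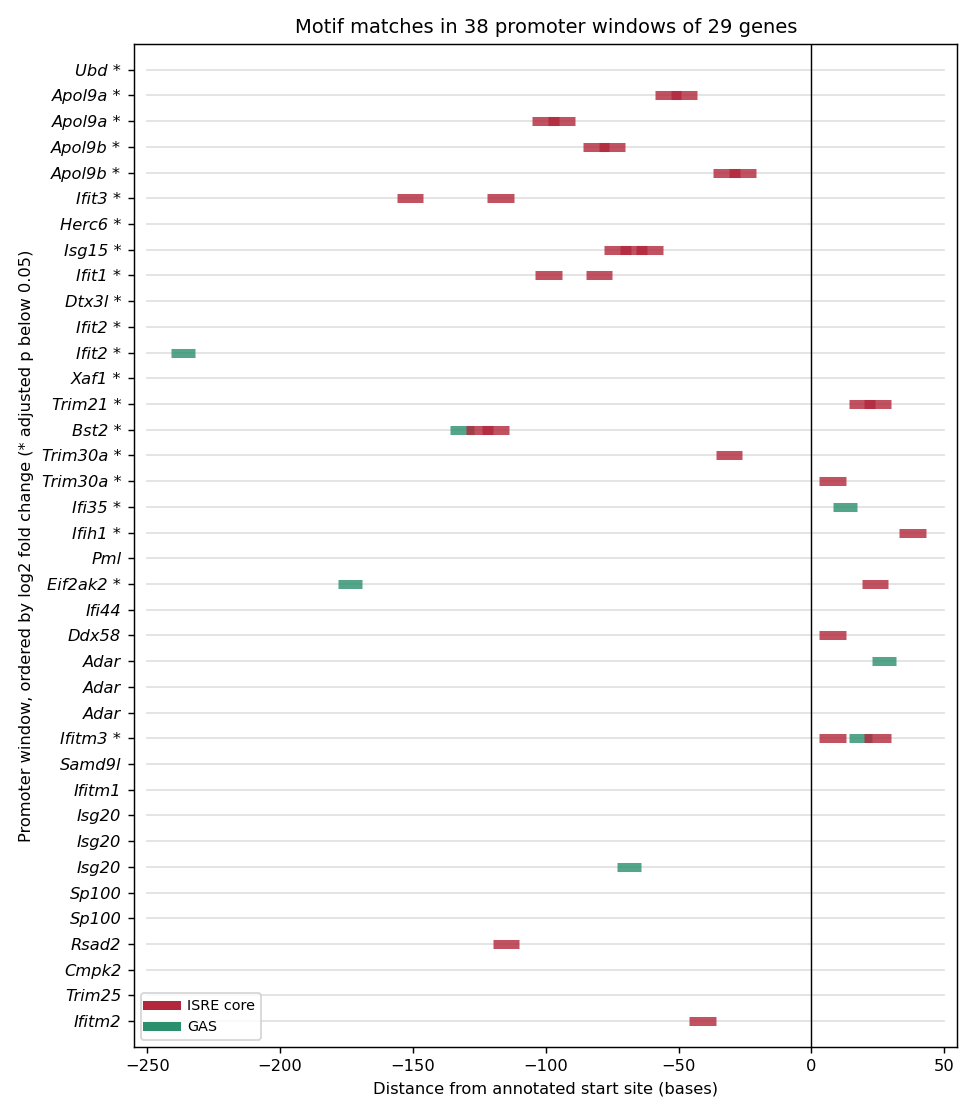
Position of ISRE core matches (red) and GAS matches (green) relative to the annotated start site in the 38 promoter windows of 29 genes, ordered by log2 fold change, with an asterisk for a limma adjusted p below 0.05. Apol9a, Apol9b, Ifit3, Isg15 and Ifit1 hold 2 or 3 cores in a window, while Ubd at the top and 5 more called genes hold none and Rsad2 and Ifitm2 near the bottom hold 1.

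Among the sensors of foreign or displaced nucleic acid, 4 of 5 rose and 1 did not pass. Zbp1, which encodes a sensor of Z-form nucleic acid that can start necroptosis, had 61.5, 571, 107 and 95.1 normalized counts in controls 1 to 4 and 2841, 3372 and 3739 in ICI-myocarditis 1 to 3. All 3 diseased hearts lay far above the highest control, and the log2 fold change was 4.57 (SE 0.636, adjusted p = 0.00376 by limma), or 23.7-fold. Dhx58, encoding LGP2, a helper of the RNA helicase sensors, had 99.8, 303, 169 and 85.1 in controls and 481, 601 and 762 in diseased hearts, a log2 fold change of 2.06 with SE 0.419 (adjusted p = 0.0120 by limma). The groups did not overlap for Dhx58, but without ICI-myocarditis 3 it missed the threshold (adjusted p = 0.0552 by limma).

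For the RNA helicase sensors themselves the fold changes were smaller. Ifih1, which encodes MDA5, had 986, 2287, 1553 and 794 normalized counts in controls and 3119, 3122 and 2888 in diseased hearts, a log2 fold change of 1.23 (SE 0.335, adjusted p = 0.0366 by limma). Ddx58, which encodes RIG-I, had 1034, 1729, 1012 and 614 in controls and 1780.3, 2232 and 2125 in diseased hearts, a log2 fold change of 0.99 (SE 0.312) that did not pass (adjusted p = 0.0631 by limma). For Ddx58 the highest control, control 2, lay just under the lowest diseased heart. Eif2ak2, which encodes the kinase PKR that halts translation on double-stranded RNA, went from 912 ± 264 (SD, n = 4) to 1827 ± 273 (SD, n = 3), a log2 fold change of 1.03 (adjusted p = 0.0218 by limma). Both calls were lost in smaller sets of libraries while the fold changes stayed between 1.001 and 1.51 for Ifih1 and between 0.90 and 1.21 for Eif2ak2. Ifih1 kept its call only without control 2, with limma adjusted p from 0.0571 (without control 4) to 0.101 (without ICI-myocarditis 2 or 3) when any other library was left out. By edgeR Ifih1 did not pass (adjusted p = 0.0695). Eif2ak2 lost its call without control 1, control 3, ICI-myocarditis 2 or ICI-myocarditis 3 (limma adjusted p from 0.0619 to 0.0900).

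The genes of the ubiquitin-like modifiers rose as a group of 4 of 4, with a median log2 fold change of 2.45. Isg15 encodes the modifier itself, a small protein joined to other proteins during infection, and it had 188, 693, 275 and 265 normalized counts in controls and 2409.5, 1510.3 and 1079.7 in diseased hearts. Although the groups did not overlap, the diseased hearts differed among themselves, ICI-myocarditis 1 being 2.23 times ICI-myocarditis 3, and the log2 fold change was 2.33 (SE 0.437, adjusted p = 0.00871 by limma). Herc6, the ligase that attaches ISG15 in mice, had 374, 1438, 525 and 239 in controls and 3093, 2802 and 3163 in diseased hearts, a log2 fold change of 2.56 with SE 0.504 (adjusted p = 0.0103 by limma). Usp18, the protease that removes ISG15 and also damps signalling at the type I interferon receptor, went from 386 ± 276 (SD, n = 4) to 1345 ± 444 (SD, n = 3) with groups apart. Usp18 rose by 1.97 (adjusted p = 0.0190 by limma) but missed the threshold without control 1, control 3, ICI-myocarditis 1 or ICI-myocarditis 2 (limma adjusted p from 0.0567 to 0.0655).

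Ubd, which encodes FAT10, a modifier that sends proteins to the proteasome, had the largest fold change of the 38 by limma on the log2(normalized count + 1) scale, but not by edgeR. It had 8.07, 178, 2.23 and 1.25 normalized counts in controls 1 to 4 and 1132, 1010.2 and 1161 in diseased hearts. The 3 diseased hearts were within 1.15-fold of one another, while the controls spanned 142-fold, with control 2 above and controls 3 and 4 at 1 or 2 reads. The log2 fold change was 6.72 (SE 1.27, adjusted p = 0.00897 by limma) and 8.09 without control 2. edgeR's quasi-likelihood test on recovered reads gave 4.51 (adjusted p = 0.0389), below its 5.48 for Apol9a and 4.88 for Apol9b. The authors' deposited table gave Ubd a log2 fold change of 4.54 (SE 1.59) and no adjusted p. The enzymes upstream of HERC6 in ISG15 transfer, Uba7 and Ube2l6, were named after their values were seen, and they rose by 1.68 and 1.90 (limma adjusted p = 0.0383 and 0.00316). Uba7 missed the threshold without any 1 library other than control 2 (limma adjusted p from 0.0669 to 0.105) and by edgeR (adjusted p = 0.0994).

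All 3 IFIT genes of the set rose, by 2.09 to 2.65. Proteins of this family can bind viral RNA or block translation. The 3 genes lie on chromosome 19 of GRCm38 between positions 34550694 (start of Ifit2) and 34650009 (end of Ifit1). Ifit1 had 394, 876, 549 and 273 normalized counts in controls and 2354, 2519 and 1649 in diseased hearts, a log2 fold change of 2.16 with SE 0.367 (adjusted p = 0.00633 by limma). Ifit2 had 1120.1, 2430.1, 1433 and 921 in controls and 5170.0, 5933 and 6511 in diseased hearts, a log2 fold change of 2.09 with SE 0.314 (adjusted p = 0.00430 by limma). Ifit3 had 448, 1551, 879 and 563 in controls and 6010.0, 5068 and 3689 in diseased hearts, a log2 fold change of 2.65 with SE 0.397 (adjusted p = 0.00426 by limma). No control reached a diseased heart in any of the 3. The order of the diseased hearts was not shared, since ICI-myocarditis 1 was highest for Ifit3 and lowest for Ifit2. Ifit1 and Ifit3 have close copies in the mouse genome, so reads may have been divided or dropped in counting.

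Parp9, Parp14 and Dtx3l all rose. PARP9 and its partner DTX3L add ubiquitin and help antiviral signalling, and PARP14 adds ADP-ribose to proteins. The 3 genes lie within 1 stretch of chromosome 16, from 35832874 to 35972605 in GRCm38. Dtx3l had 1455, 2398, 1379 and 1105 normalized counts in controls and 5386, 6727 and 7738 in diseased hearts, a log2 fold change of 2.11 with SE 0.278 (adjusted p = 0.00351 by limma). Parp14 had 3192, 7038, 2986 and 1750.4 in controls and 11159, 14580.3 and 14960.1 in diseased hearts, a log2 fold change of 2.03 with SE 0.414 (adjusted p = 0.0119 by limma). Parp9 went from 1363 ± 667 (SD, n = 4) to 4274 ± 517 (SD, n = 3), a log2 fold change of 1.75 (adjusted p = 0.00849 by limma). In each of the 3 genes the groups were fully apart and control 2 was the highest control. Parp9 and Dtx3l overlap by 682 bases on opposite strands, and whether strand was used in counting is not given in the sources used here, so reads from the overlap cannot be assigned to either.

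Of the MX pair, dynamin-like GTPases that trap viral cores, only Mx1 passed by limma. Mx1 had 26.2, 262, 44.7 and 23.8 normalized counts in controls and 402, 478 and 576 in diseased hearts, and it rose by 3.17 (SE 0.728, adjusted p = 0.0191 by limma). Mx2 had 103, 427, 166 and 52.5 in controls and 242, 294 and 172 in diseased hearts, so that control 2 exceeded every diseased heart, and its log2 fold change of 0.71 (SE 0.602) did not pass (adjusted p = 0.475 by limma). Mx1 missed the threshold without control 1, control 3, ICI-myocarditis 2 or ICI-myocarditis 3 (limma adjusted p from 0.0561 to 0.0751). It also missed it by edgeR (log2 fold change 2.41, adjusted p = 0.0717). Both genes are disabled in many laboratory strains, and GENCODE lists Mx2 as a polymorphic pseudogene. The strain is not given in the labels.

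**Figure D3:**
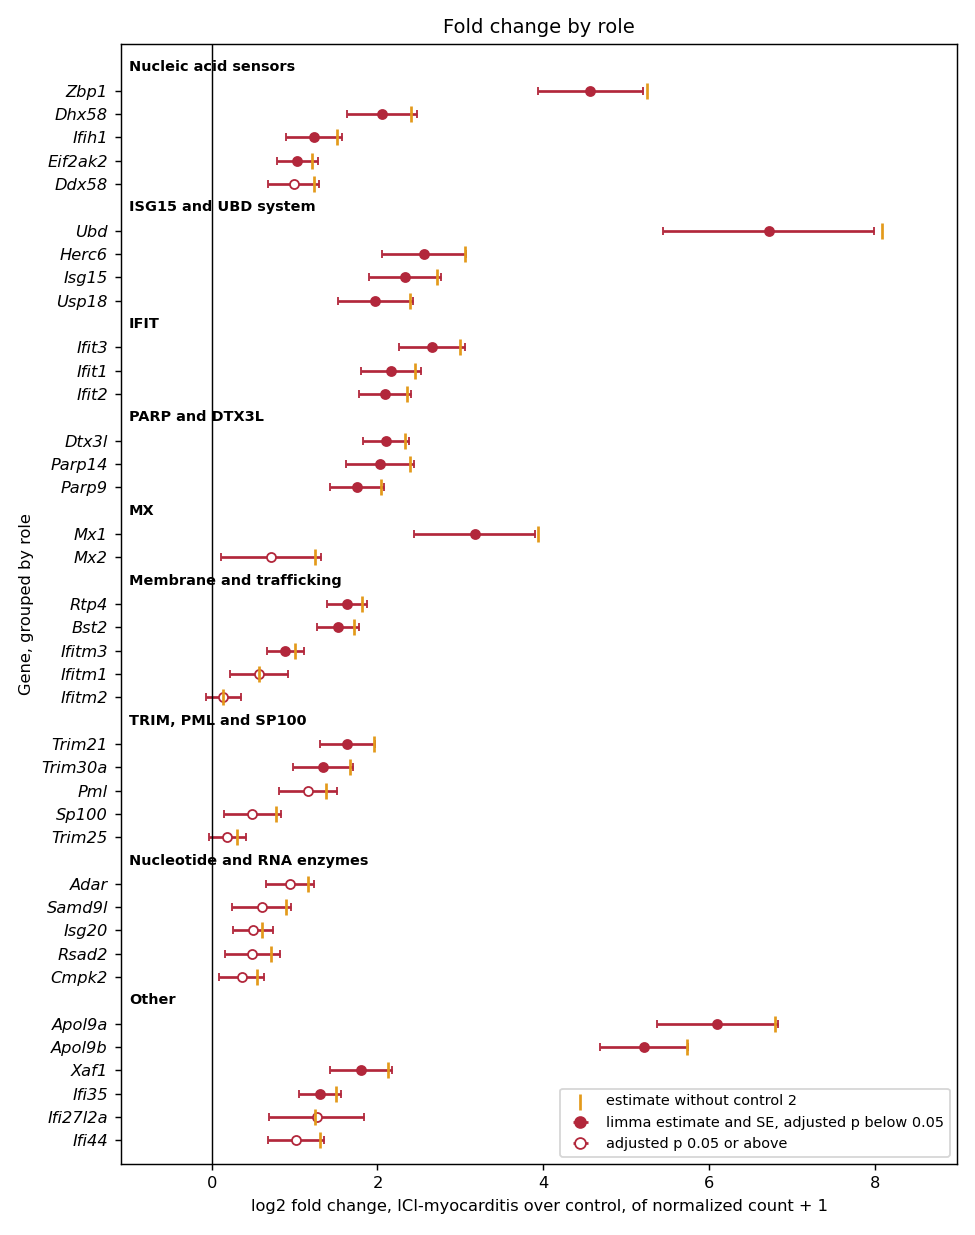
Log2 fold change (ICI-myocarditis over control, of normalized count + 1) of the 38 genes grouped by role, with the standard error as bars and filled points for a limma adjusted p below 0.05. Orange ticks give the estimate without control 2. The 5 nucleotide and RNA enzymes are all open points, while all points of the ISG15 and UBD, IFIT and PARP groups are filled. Among all genes tested 11.7% were called higher.

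Of the genes that act at membranes or in protein trafficking, 3 of 5 rose. Bst2, which encodes tetherin, a protein that holds budding virus on the cell, had 781, 1437, 767 and 931 normalized counts in controls and 3189, 2647 and 2376 in diseased hearts, a log2 fold change of 1.52 with SE 0.251 (adjusted p = 0.00577 by limma). Rtp4, a chaperone of receptors at the cell surface, had 410.3, 757, 547 and 409 in controls and 1700.5, 1492 and 1585 in diseased hearts, a log2 fold change of 1.63 with SE 0.243 (adjusted p = 0.00423 by limma). Both genes were apart between groups, and both calls held whichever single library was left out.

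The IFITM genes encode small membrane proteins that hinder fusion of virus with the cell, and of the 3 in the set only Ifitm3 passed. Ifitm3 had 2797, 3284, 2179.7 and 2169 normalized counts in controls and 4136, 4576 and 5691 in diseased hearts, a log2 fold change of 0.89 with SE 0.226 (adjusted p = 0.0279 by limma). The groups were apart for Ifitm3, but it missed the threshold without control 1, control 3, control 4, ICI-myocarditis 2 or ICI-myocarditis 3 (limma adjusted p from 0.0571 to 0.124). Ifitm2 had 1639, 1490.2, 1346 and 1491 in controls and 1489.7, 1323 and 2230.4 in diseased hearts, a log2 fold change of 0.14 with SE 0.214 (adjusted p = 0.716 by limma). Its sign turned without ICI-myocarditis 3 (-0.084). Ifitm1 was scarce, at 49.7 ± 9.59 (SD, n = 4) and 76.6 ± 28.2 (SD, n = 3), and did not pass (log2 fold change 0.57, adjusted p = 0.322 by limma). Ifitm2 and Ifitm1 overlapped between groups.

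The 5 enzymes of nucleotide and RNA metabolism gave 0 calls, with a median log2 fold change of 0.50, and 1 of them had an unadjusted p under 0.05. Among all genes tested 11.7% were called higher, so 0 of 5 does not set these genes apart. All 5 had a fold change above 0. By edgeR's quasi-likelihood test 0 of the 5 passed, and by limma without control 2 there were 2 (Adar and Samd9l, adjusted p = 0.00990 and 0.0444). Rsad2 encodes viperin, which makes a chain-terminating nucleotide, and it had 1453, 2825, 2265 and 1056 normalized counts in controls and 2857, 2721 and 1971 in diseased hearts. The groups overlapped, with control 2 between the 2 highest diseased hearts (log2 fold change 0.49, SE 0.334, adjusted p = 0.369 by limma). Cmpk2, a mitochondrial nucleotide kinase whose gene lies 12751 bases from Rsad2 on chromosome 12, had 916, 1242, 795 and 566 in controls and 1163, 1254 and 879 in diseased hearts, a log2 fold change of 0.36 with SE 0.274 (adjusted p = 0.425 by limma). A p above the threshold does not show that these genes were unchanged. Samd9l, a brake on translation, had 1299.6, 3057, 1994 and 952 in controls and 2428, 2391 and 2738 in diseased hearts, a log2 fold change of 0.60 with SE 0.357 (adjusted p = 0.298 by limma). Isg20, an RNA exonuclease, went from 188 ± 35.2 to 266 ± 52.9 (SD, n = 4 and 3; adjusted p = 0.210 by limma). Adar, the enzyme that edits adenosine in double-stranded RNA, went from 1446 ± 533 to 2656 ± 364 with groups apart (log2 fold change 0.94, adjusted p = 0.0573 by limma). The authors' deposited table gave Adar an adjusted p of 0.0375.

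Of the TRIM ligases and the proteins of PML nuclear bodies, 2 of 5 rose. Trim21, an antibody receptor inside the cell that tags its target with ubiquitin, had 337, 789, 395 and 268 normalized counts in controls and 1289, 1279.8 and 1262 in diseased hearts. The 3 diseased hearts agreed within 1.02-fold, above all controls (log2 fold change 1.64, SE 0.332, adjusted p = 0.0117 by limma). Trim30a went from 1069 ± 579 (SD, n = 4) to 2454 ± 230.4 (SD, n = 3), a log2 fold change of 1.34 (adjusted p = 0.0352 by limma). It missed the threshold without control 1, control 3 or any 1 of the ICI-myocarditis libraries (limma adjusted p from 0.0746 to 0.125) and by edgeR (adjusted p = 0.0711). Trim25, the ligase that activates RIG-I, had 2887, 3395, 2463 and 2116 in controls and 3564, 2940.1 and 2700.3 in diseased hearts, with overlap (log2 fold change 0.19, SE 0.219, adjusted p = 0.618 by limma). Pml, the scaffold of the bodies, had 990.1, 1206, 607 and 485 in controls and 1217, 1819 and 2333 in diseased hearts, just apart (log2 fold change 1.16, SE 0.349, adjusted p = 0.0524 by limma). Sp100, another body protein, was higher in control 2 (2878) than in every diseased heart (1821, 2198 and 2683), and did not pass (log2 fold change 0.49, adjusted p = 0.380 by limma).

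Of the 6 remaining genes 4 rose. Apol9a and Apol9b, apolipoprotein L genes of the mouse, had the largest fold changes after Ubd by limma, and larger ones than Ubd by edgeR. Apol9a had 7.06, 80.2, 23.4 and 7.51 normalized counts in controls and 1579, 1328 and 1093 in diseased hearts, a log2 fold change of 6.10 with SE 0.726 (adjusted p = 0.00285 by limma). Apol9b had 17.1, 85.1, 26.8 and 15.0 in controls and 1208, 1067 and 955 in diseased hearts, a log2 fold change of 5.22 with SE 0.531 (adjusted p = 0.00251 by limma). Control 2 reached 6.01% and 7.90% of the diseased mean for these genes, less than for any other of the 38. Their longest coding transcripts in GENCODE M21 are 93.8% identical, and 24.5% of the 150-base stretches of Apol9a, the read length, occur unchanged in Apol9b. The 2 values are therefore not independent, and how reads were divided between them is not known. No 150-base stretch was shared between the transcripts of Mx1 and Mx2 or within the IFIT and IFITM members.

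Xaf1, a partner of caspase inhibitors, rose by 1.81 (from 579 ± 319.7 to 1837 ± 304, adjusted p = 0.0124 by limma), and Ifi35 by 1.31 (from 746 ± 230.2 to 1807 ± 324, adjusted p = 0.00977 by limma), with SD over 4 and 3 libraries. Ifi44, a gene strongly induced by type I interferon, had 338, 702, 382 and 238 normalized counts in controls and 819.5, 873 and 654 in diseased hearts. Control 2 lay above ICI-myocarditis 3 for Ifi44, and it did not pass (log2 fold change 1.02, SE 0.335, adjusted p = 0.0716 by limma). Ifi27l2a went its own way, with 489, 1035, 1429 and 1844 in controls and 6553, 1859 and 1424 in diseased hearts. ICI-myocarditis 1 stood far above the controls, ICI-myocarditis 2 just above the highest and ICI-myocarditis 3 among them. The diseased hearts spanned 4.60-fold, and control 4, not control 2, was the highest control (log2 fold change 1.27, SE 0.573, adjusted p = 0.174 by limma). Without ICI-myocarditis 1 the log2 fold change of Ifi27l2a was 0.60.

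By the median over the set, the diseased hearts lay closer together than the controls. The ratio of the highest to the lowest library had a median of 1.36 over the 38 genes in ICI-myocarditis and 2.95 in controls. Among controls 1, 3 and 4 it was 1.71, so much of the contrast lay in control 2. A ratio over 4 libraries tends to exceed one over 3, and the same ratio over all genes was not computed. The mean log2(normalized count + 1) over the 38 genes was 10.81, 10.76 and 10.74 in ICI-myocarditis 1 to 3, and 8.61, 9.92, 8.91 and 8.34 in controls 1 to 4. Control 4 was the lowest control for 28 of the 38, against 30.8% of all genes tested. Control 2 was above the mean of the diseased hearts for 6 genes, namely Mx2, Sp100, Samd9l, Cmpk2, Rsad2 and Trim25, and above every diseased heart for 3 of them (Mx2, Sp100 and Samd9l). None of the 6 was called by limma or by edgeR's test, and at an unadjusted limma p under 0.05 there were 0. Picking genes by a high control 2 itself makes a call less likely, so this count is no separate result. For Mx2, control 2 was at 181% of the diseased mean, and for Zbp1 at 17.2%. When control 2 was left out, 5 more genes passed, namely Ddx58, Adar, Samd9l, Pml and Ifi44 (limma adjusted p = 0.00737, 0.00990, 0.0444, 0.0161 and 0.00496). Control 2 was the highest control for each of these 5, so leaving it out raises their fold changes by itself.

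**Figure D4:**
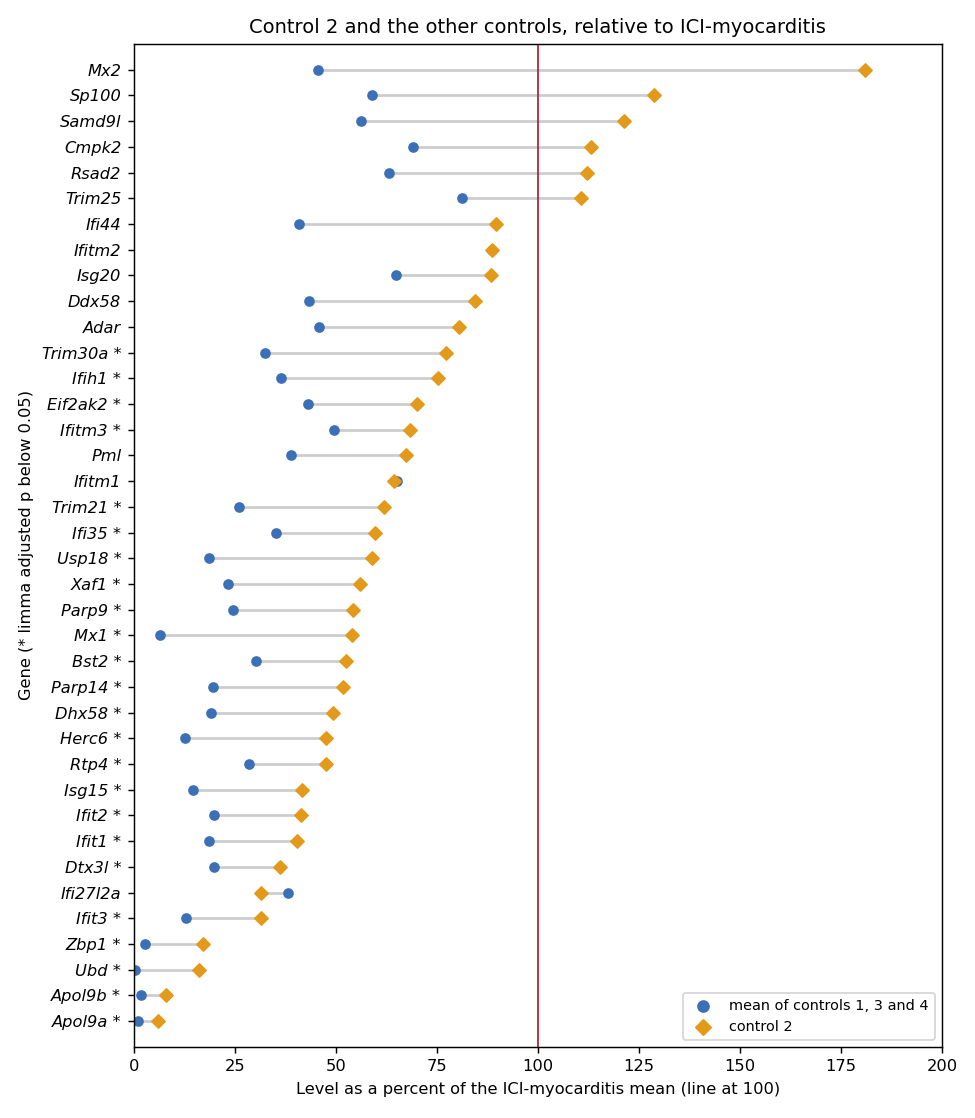
Level of control 2 (diamonds) and of the mean of controls 1, 3 and 4 (circles) as a percent of the ICI-myocarditis mean, which is the line at 100, for each of the 38 genes. Control 2 lies to the right of the line for 6 genes and below 20 for Zbp1, Ubd, Apol9b and Apol9a.

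Markers of T cells and of macrophages and monocytes rose along with these genes, beside 11.7% of all genes tested called higher. All 7 T cell markers in the table rose, among them Cd3e (5.61) and Cd3d (5.17), and their summed normalized counts ran from 128 to 1611 in controls, where control 2 held the 1611 and the others at most 203, and from 6852 to 10495 in ICI-myocarditis. Of 7 macrophage and monocyte markers 6 rose, Cd68 by 2.36, with sums of 5012 to 6665 in controls and 15764 to 32864 in ICI-myocarditis. Of the plasmacytoid dendritic cell markers, a cell type known for making type I interferon, 2 of the 6 tested rose (Bst2, itself among the 38, and Pacsin1, named after its value was seen), while the defining gene Siglech, at a mean of 8.33 normalized counts in controls, reached 17.4 in ICI-myocarditis and did not pass (adjusted p = 0.271 by limma). The 8 cardiomyocyte markers, abundant in every library, gave 0 calls (2 at an unadjusted p under 0.05) with a median log2 fold change of -0.79, and 3 of 6 endothelial markers were lower. Control 2 had the lowest summed cardiomyocyte counts of the controls (1230122), within the range of ICI-myocarditis (772813 to 1346975). Its summed endothelial counts were the highest of the controls (66539), above ICI-myocarditis (17304 to 24984). The part of these cell types in the results was not tested. In bulk tissue fewer cells of a type and less RNA per cell cannot be told apart, and the same holds for more cells against more RNA per cell. Thymus markers were near 0, with Foxn1 at 0 in all libraries. In the remaining lists 1 of 4 tested B cell markers, 1 of 3 NK cell markers and 1 of 6 fibroblast markers were called higher. Neutrophil markers gave 0 of 2, and of 3 skeletal muscle markers 0 were higher and 1 was lower.

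Around the 38 genes, the interferon pathway was read from a list of 52 genes, of which 50 were in the table and 32 passed the filter. Of these, 18 rose and 0 fell, with a median log2 fold change of 0.98. Among all genes tested 11.7% were called higher and 4.0% lower. Ligands of type I were almost absent: summed over 16 genes they had 4, 11, 7 and 5 reads in controls 1 to 4 and 14, 20 and 23 reads in ICI-myocarditis, and most of these reads were of Ifnk and Ifnz. Ifnb1, the main type I gene of non-immune cells, had 1 read in control 3, 2 in ICI-myocarditis 2 and 1 in ICI-myocarditis 3 and 0 in the other 4 libraries, where a count of 0 allows up to 3 reads. Ifna1, Ifna4, Ifna11 and Ifnab each had at most 3 reads in any library, and the type III genes Ifnl2 and Ifnl3 had 0. Members of the Ifna and Ifnz families are near-identical, so their counts are uncertain. Ifng, by contrast, had 2, 45, 4 and 0 reads in controls and 238, 391 and 763 in diseased hearts, and it rose by 5.96 on the log2 scale (SE 1.14, adjusted p = 0.00935 by limma).

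None of the 6 interferon receptor genes passed, with 2 at an unadjusted p under 0.05 and 0 called by edgeR's test. Ifnar1 had 1605 ± 271 normalized counts in controls and 2398 ± 373 in diseased hearts (log2 fold change 0.58, adjusted p = 0.0841 by limma), and it passed without control 2 (adjusted p = 0.0386). Ifnar2 (0.52), Ifngr1 (0.31) and Ifngr2 (-0.47) did not pass (limma adjusted p = 0.0824, 0.367 and 0.494). Of the 9 STAT and IRF factors 7 rose. Stat2, specific to type I and III signalling, rose by 1.67 (adjusted p = 0.0240 by limma), Irf1 by 2.29 (0.0123) and Irf7, the amplifier of IFN-alpha, by 2.47 (0.00694). Stat2 missed the threshold without control 1, control 3 or any 1 of the ICI-myocarditis libraries (limma adjusted p from 0.0580 to 0.0786) and by edgeR (adjusted p = 0.0625), and Irf1 without ICI-myocarditis 3 (limma adjusted p = 0.0552). Irf9, the DNA-binding partner of STAT2, went from 1064 ± 323 to 1755 ± 161 (log2 fold change 0.76) and did not pass (adjusted p = 0.0621 by limma), but passed without control 2 (0.00861). The feedback inhibitors Socs1 and Socs3 rose by 4.55 and 3.16 and the DNA sensor Tlr9 by 3.27, while Mavs, the adaptor of RIG-I and MDA5, did not pass (-0.42, adjusted p = 0.429 by limma). Without ICI-myocarditis 3 the pathway calls fell from 18 to 10, while the share of all genes called higher fell from 11.7% to 5.51%.

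Further interferon-stimulated genes outside the set were read from a list of 64, of which 52 were in the table and 48 were tested. Of these 32 rose and 0 fell, beside 11.7% of all genes called higher, with a median log2 fold change of 1.24. Without control 2 the count was 41, beside 14.9% of all genes called higher. The largest fold changes were those of Apol6 (5.61), Ms4a4c (3.51), Phf11a (3.38) and Phf11b (3.25), with limma adjusted p from 0.00443 to 0.0103. The smallest were those of Ifitm5 (-0.32), Pnpt1 (-0.17), Tdrd7 (0.07) and Trim56 (0.15), of which none passed.

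Neighbouring genes of the set were compared within each library, since the ratio of 2 genes in 1 library does not depend on its scaling, apart from the pseudocount. Members whose GENCODE genes lie within 100000 bases of each other form 11 pairs. The log2 ratio of Mx1 to Mx2 was -1.41 ± 0.598 (SD, n = 4) in controls and 1.06 ± 0.592 (SD, n = 3) in ICI-myocarditis, a difference of 2.46 on the log2 scale with all 3 diseased hearts above all 4 controls (exact permutation p = 0.0286, two-sided, the smallest the 35 splits allow; adjusted over 11 pairs 0.314). The log2 ratio of Ifitm3 to Ifitm2 was 0.79 ± 0.254 in controls and 1.54 ± 0.226 in diseased hearts (exact permutation p = 0.0571, adjusted 0.314). With 11 pairs no pair alone can pass the adjustment, so these differences are given as sizes. Rsad2 and Cmpk2, which share a stretch of chromosome 12, differed by 0.13 between groups in mean log2 ratio (exact permutation p = 0.600, adjusted 0.691), and Dtx3l and Parp14 by 0.08 (exact permutation p = 0.629, adjusted 0.691).

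**Figure D5:**
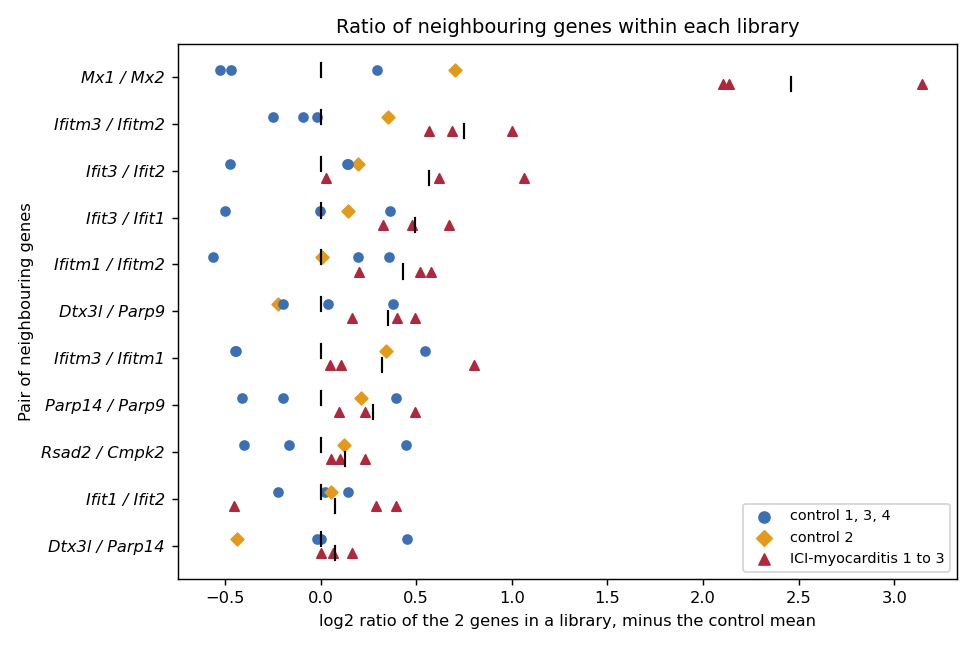
Log2 ratio of the 2 genes of each neighbouring pair in every library, with the control mean of the pair set to 0. Circles and the diamond (control 2) are controls, triangles are ICI-myocarditis and black ticks are group means. Only for Mx1 over Mx2 and Ifitm3 over Ifitm2 do all triangles lie to the right of all controls.

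Set per kilobase of the longest coding transcript, the levels of the 38 genes covered a wide range, a scale that depends on the GENCODE M21 models and not on those the authors counted with. In controls the mean normalized count per kilobase was highest for Ifitm3 (3846), Ifi27l2a (2590.4), Ifitm2 (2277) and Bst2 (1236), and lowest for Apol9a (19.3), Apol9b (22.9) and Mx1 (26.3). In ICI-myocarditis Ifi27l2a (7082) and Ifitm3 (7081) were highest, followed by Bst2 (3457), Ifit3 (2821) and Ifitm2 (2567), and Ifitm1 (86.9) and Mx2 (97.6) were lowest. Ubd went from 50.8 to 1182, Zbp1 from 105 to 1668 and Isg15 from 469.8 to 2204. Ifitm2 went from the third place to the fifth, behind Bst2 and Ifit3. The lead of Ifi27l2a rests on ICI-myocarditis 1, and Ifi27l2a and Ifitm3 do not differ beyond their spread.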

How the data were processed

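RNA of 4 control and 3 ICI-myocarditis hearts was measured by paired-end sequencing of stranded total RNA libraries, per the labels' protocols. STAR 2.7.3 and the build GRCm38 (mm10) are named in the submitters' processing notes, and the counting program and annotation are not given in the sources used here. The library values are a signal deposited by the authors, reads over a factor of each library, judged from the values: every value is a whole multiple of the column's smallest (tolerance 0.01 of 1 read). Control 1's step of 1.01 makes this a weaker sign there. Further deposited columns carry DESeq2's names per the file headers: a log2 change, its error, a statistic (taken as a score), and raw and adjusted p-values.

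limma (3.58.1, R 4.3.3, with trend and robust variance) was run on log2(normalized count + 1) for the 15258 genes that reached 10 normalized counts in 3 or more libraries, with Benjamini-Hochberg adjustment over all of them and a threshold of 0.05. Alternatives were edgeR 4.0.16, DESeq2 1.42.0 and limma-voom on recovered reads, scaling by library total, other pseudocounts and filters, a replicate block, and leaving out each library. Rows with names turned into dates (27) held 0.142% of the normalized counts. On simulated counts with the same groups (15289 genes, 200 changed), limma recovered 76.5% of changes of 2 and 8.16% of changes of 1 on the log2 scale. Of its calls 6.52% were wrong, the same share as for edgeR, while for DESeq2 24.5% were wrong. The simulation changed a smaller share of genes than the 15.7% called in the data, and drew each gene separately. It held no shift of control 2 shared by many genes, so these rates may not hold for the data.

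The members and lists were chosen with earlier results of these data known, so no pattern here is independent support. Named are all 38 members, from the pathway list the ligands with reads, the receptors, main factors (1 is not reported here) and 3 others with the lowest p, from the further list the 4 largest and 4 smallest fold changes, and the first genes of each marker list. Promoters and coordinates come from RefSeq GRCm38.p6 and GENCODE M21 (GRCm38).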

Additional observations from a re-analysis of the deposited data

How the results depend on the processing

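Over 17 alternatives the called genes of the 38 numbered 18 to 29 beside 24, and 17 genes were called under every one. The share of all genes called under every one is not given here. Leaving out 1 library gave 18 to 29 called genes, beside 5.51% to 14.9% of all genes called higher. The median log2 fold change of the 38 was then 1.36 to 1.69, and none of the 38 was called lower under any alternative. Of 646 values of single genes 595 kept their direction and side of the threshold, 40 lost and 10 gained it, and 1 reversed, Ifitm2 (0.14), which ranged from -0.084 without ICI-myocarditis 3 to 0.29 without ICI-myocarditis 2. Calls over all genes in either direction, 2397, ranged from 986 to 3340 when 1 library was left out, and pathway calls, 18, from 10 to 21. Scaling by library total moved the median of all genes by 0.16 and that of the 38 from 1.43 to 1.59 on the log2 scale, with 0 of the 38 below 0. edgeR's test called 21 of the 38 and DESeq2 28. The labels do not say whether equal numbers in the titles pair the samples. Deviations from the group mean of same-numbered libraries correlated at -0.27, -0.21 and -0.08 across genes. Libraries of unlike number correlated from -0.48 to 0.45, so these values cannot decide whether samples are paired. With the replicate block, where control 4 has no partner, 20 of the 38 were called, all higher, beside 1780 of all genes called higher or lower. Low counts limit the control values of Ubd and Apol9a and the interferon ligands. The cause of these differences was not tested.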
